A study of Mus musculus with 8 samples.

Results

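The 36 genes described here mark blood and lymphatic endothelium and sprouting vessels, and each was chosen by its symbol among the 54532 genes of a mouse count table. They fall into 7 roles, which are junction and adhesion proteins (7 genes), growth factor receptors with their phosphatase (7), guidance, lipid and peptide receptors (5), secreted, fenestral and enzyme genes (5), transcription factors (4), lymphatic genes (3) and tip cell genes (5). RNA from whole 4T1 tumors of mice given saline was compared with RNA from tumors of mice given mAb-DXd/IMQ, with 4 tumors in each group. mAb-DXd/IMQ, named HumCD276-Dxd/IMQ in the labels, is a humanized antibody to CD276 that carries DXd, a topoisomerase I inhibitor, and IMQ, an imidazoquinoline agonist of Toll-like receptors 7 and 8. Its 5 courses, each of 16 mg/kg into the tail vein, were spaced 4 days apart. The control tumors are titled saline, while their treatment label reads PBS control. All mice were female BALB/cJ, 6 weeks old when injected, and immunocompetent. Each carried a subcutaneous tumor of 4T1-FLuc, a mouse triple-negative breast cancer line with a luciferase reporter, so the tumor cells came from a single line and the vessels from the host.

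Endothelial cells line every vessel. Vascular endothelial growth factor acts on them through the receptor kinases Kdr and Flt1, angiopoietins act through Tek, and VE-cadherin (Cdh5) holds neighbouring cells together. When a vessel sprouts, a leading tip cell expresses Dll4, which activates Notch in the cells behind it, while lymphatic endothelium takes its identity from the transcription factor Prox1. Growing tumors depend on new vessels, and tumor vessels are often leaky and irregular.

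The measurement was the number of reads that the authors counted on each gene in each tumor. Total counts were 49398150, 45019927, 56388627 and 69582375 in saline tumors 1 to 4, and 51625237, 46196237, 42965317 and 34591912 in mAb-DXd/IMQ tumors 1 to 4. The groups overlapped in depth, with medians of 52893388.5 and 44580777 counts. Their means were 55097269.75 and 43844675.75 counts (two-sided exact permutation test on the means, p = 0.171, n = 4 per group). Mitochondrial genes held 2.395% to 2.525% of counts in saline tumors and 1.77%, 3.14%, 3.05% and 3.61% in mAb-DXd/IMQ tumors 1 to 4. The difference in means had p = 0.429 (two-sided exact permutation test, n = 4 per group). Levels are given as CPM, in which each count is divided by its tumor's total after TMM scaling (trimmed mean of M-values). A gene with 3 counts would stand at 0.0431 to 0.0867 CPM before scaling, a floor that covers counting error only. All 36 genes lay above the filter on low counts and were tested among 18511 genes. Their coordinates in the table are those of the GRCm38 build. No label gives a batch, so values within batches could not be computed.

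Saline tumor 1 stood apart from the other 7 tumors. It held the lowest value of the 8 tumors in 27 of the 36 genes, where 15.5% of all tested genes had their lowest value in that tumor. It held the highest value in 1, Flt1. Outside the lymphatic role, 27 of 33 genes were lowest there. mAb-DXd/IMQ tumor 1 held the highest value in 15 of the 36, and in 21.8% of all tested genes. Summed over the 36 genes, levels were 524, 838, 681 and 657 CPM in saline tumors 1 to 4 and 919, 800.4, 910 and 802 CPM in mAb-DXd/IMQ tumors 1 to 4. Saline tumor 2 lay above mAb-DXd/IMQ tumors 2 and 4, so the groups overlapped. Fewer endothelial cells and less RNA of these genes per cell cannot be told apart in RNA from whole tumors. The paper reports that mAb-DXd/IMQ tumors were much smaller than saline tumors at the endpoint, with extensive death of cancer cells. The part of tumor size or cell death in the values here was not tested.

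**Figure D1:**
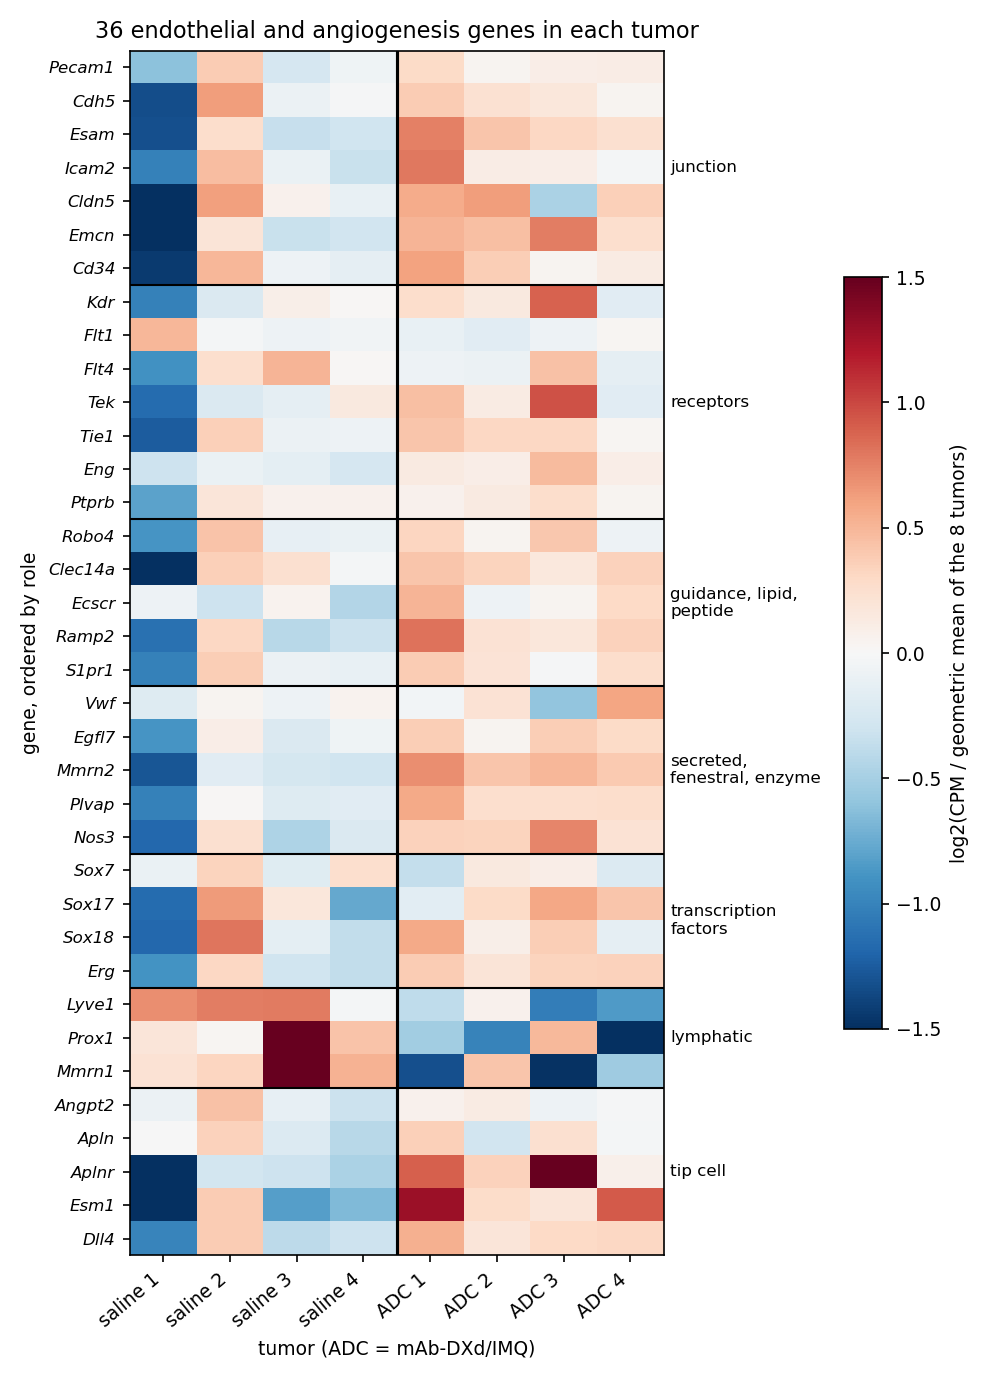
Level of each of the 36 genes (rows, ordered by role) in each of the 8 tumors (columns), as log2 of CPM over the geometric mean of the 8 tumors. Saline tumor 1 is the blue column, lowest in 27 of the 36 genes, and the 3 lymphatic genes run opposite to the other roles.

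Most blood vessel genes had higher means in mAb-DXd/IMQ tumors, and the 3 lymphatic genes had lower means. How many passed the thresholds differed by tool. edgeR's quasi-likelihood test put 0 of 36 past both thresholds, an adjusted p (false discovery rate) below 0.05 with a log2 fold change beyond 0.58 in either direction, against 1.06% of all tested genes. At an unadjusted p under 0.05 there were 16 of 36, against 18.9% of all tested genes, and without mAb-DXd/IMQ tumor 1 there were 9, against 21.8%. By role, the 16 were 2 of 7 junction genes, 1 of 7 growth factor receptors, 2 of 5 guidance genes and 4 of 5 secreted genes. The rest were 1 of 4 transcription factors, 3 of 3 lymphatic genes and 3 of 5 tip cell genes. The lowest adjusted p was 0.0679 by edgeR, and 3 genes were under 0.1, the matrix glycoprotein Mmrn2, the apelin receptor Aplnr and endoglin (Eng). DESeq2 put 7 of 36 past the same thresholds, against 4.25% of all tested genes. These were Emcn, Mmrn2, Plvap, Aplnr and Esm1, higher, and Lyve1 and Mmrn1, lower, with adjusted p-values from 0.0031 for Mmrn2 to 0.0468 for Mmrn1. limma voom put 0 of 36 past them, against 0.94%.

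The median log2 fold change of the 36 genes was 0.41, with 30 above 0 and 6 below, against 0.02 over all tested genes, of which 52.6% were above 0. Without saline tumor 1 the median was 0.18, with 28 above 0, against 0.03 over all genes, and without saline tumor 2 it was 0.62. The 4 mAb-DXd/IMQ values all lay above the 4 saline values in 5 of 36 genes, Emcn, Eng, Mmrn2, Plvap and Aplnr, against 5.97% of all tested genes. They all lay below in 0 of 36, against 7.1%. Without saline tumor 1 the groups were apart in the same 5 genes, against 8.31% of all genes, and in 0 of 36 lower, against 10.4%. Without saline tumor 2 they were apart in 21, all higher, against 8.13% of all genes higher and 8.95% lower. Without mAb-DXd/IMQ tumor 2 they were apart in 7 higher, against 7.78%, and 2 lower, against 8.74%. Without mAb-DXd/IMQ tumor 4 they were apart in 8, all higher, against 7.92% higher and 8.62% lower. The number therefore turned on which tumors were kept.

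**Figure D2:**
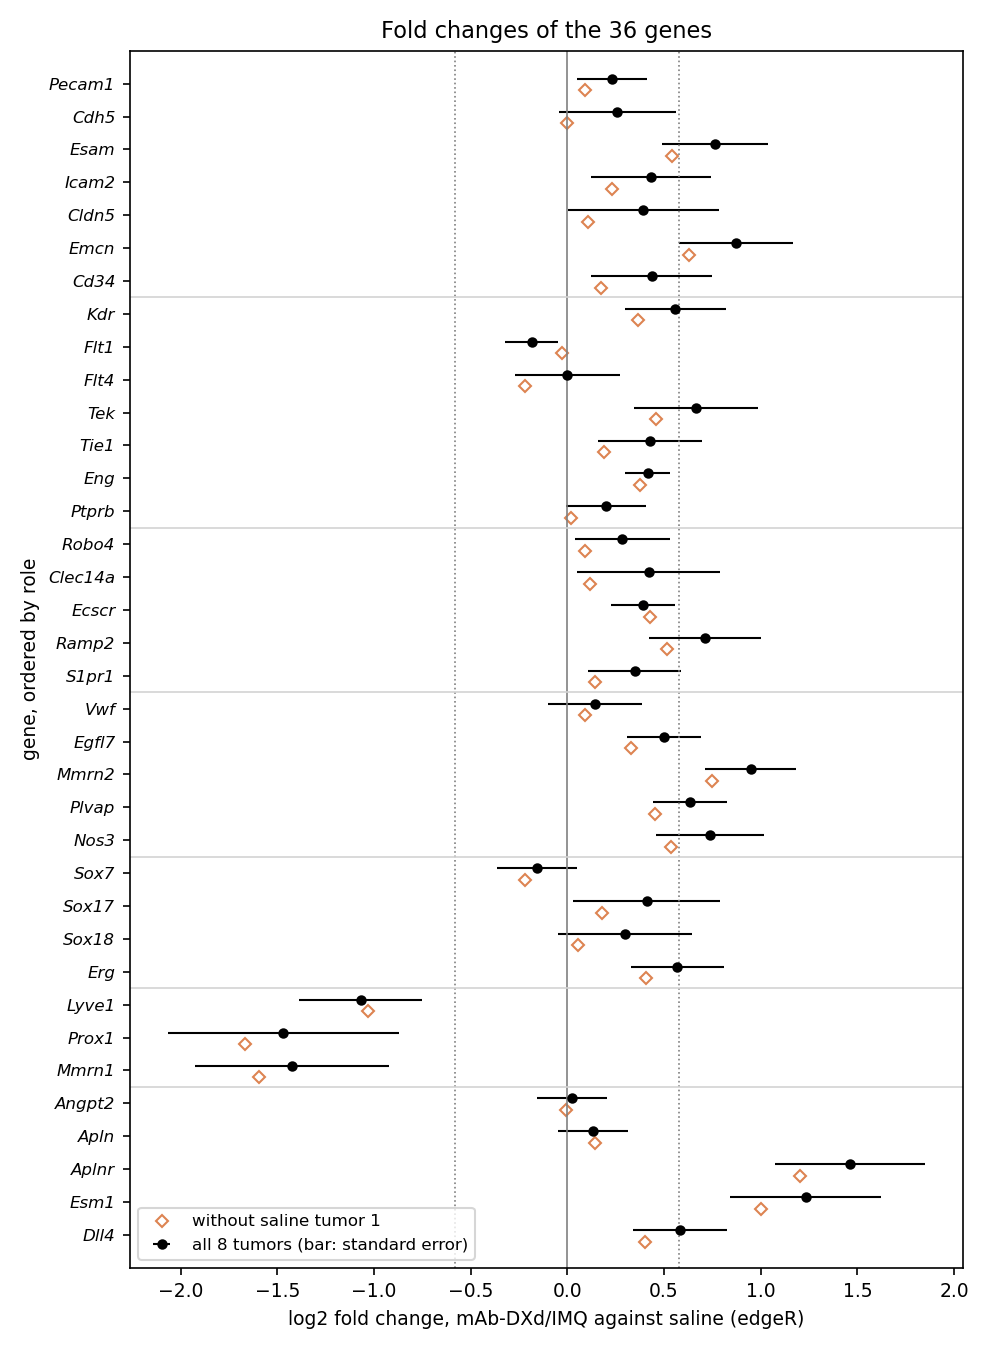
Log2 fold change of mAb-DXd/IMQ against saline for each of the 36 genes by edgeR, with all 8 tumors (points, bars are the approximate standard error) and without saline tumor 1 (diamonds); dotted lines mark 0.58 in either direction. The median is 0.41 with all tumors and 0.18 without saline tumor 1. The 3 lymphatic genes lie between -1.47 and -1.07 with all tumors, and between -1.67 and -1.03 without saline tumor 1.

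Promoter sequences are shown for Emcn and Eng, whose groups did not overlap, and for Esm1, which had a log2 fold change above 1. RefSeq promoter windows of 300 bases, from 250 before to 50 after the start, were held for 18 of the 36 genes, in 23 windows (GRCm38.p6). Capitals mark 2 short strings searched on both strands, so that either may stand as its reverse complement, AGGAAG, a core bound by ETS factors such as Erg, and AACAAT, a core bound by SOX factors such as Sox17. The strings share no overlapping letters in these windows. AGGAAG was found in 10 of the 23 windows, in Cd34, Egfl7, Eng, Emcn, Tie1, Flt1, Robo4, Erg and Apln, and in 35.4% of 32851 mouse windows. AACAAT was found in 4 of the 23, in Emcn, Tek, Mmrn1 and Erg, and in 10.7% of all windows. Emcn (chr3:137340828-137341127, plus strand) held 2 ETS strings and 1 SOX string. Eng (chr2:32646345-32646644, plus strand) held 2 ETS strings, and Esm1 (chr13:113209409-113209708, plus strand) had neither string. A match is a string of letters, not a measured site.
Emcn: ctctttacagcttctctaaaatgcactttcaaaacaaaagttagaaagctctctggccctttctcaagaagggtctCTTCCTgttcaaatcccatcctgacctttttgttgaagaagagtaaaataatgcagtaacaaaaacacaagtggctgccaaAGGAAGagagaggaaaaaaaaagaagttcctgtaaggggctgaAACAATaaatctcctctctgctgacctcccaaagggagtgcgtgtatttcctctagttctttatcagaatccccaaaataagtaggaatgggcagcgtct
Eng: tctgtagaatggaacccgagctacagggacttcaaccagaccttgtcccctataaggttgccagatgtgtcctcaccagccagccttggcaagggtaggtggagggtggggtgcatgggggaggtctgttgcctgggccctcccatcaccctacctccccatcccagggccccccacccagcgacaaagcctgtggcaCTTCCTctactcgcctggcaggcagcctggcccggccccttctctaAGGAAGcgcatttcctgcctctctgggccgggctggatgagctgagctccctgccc
Esm1: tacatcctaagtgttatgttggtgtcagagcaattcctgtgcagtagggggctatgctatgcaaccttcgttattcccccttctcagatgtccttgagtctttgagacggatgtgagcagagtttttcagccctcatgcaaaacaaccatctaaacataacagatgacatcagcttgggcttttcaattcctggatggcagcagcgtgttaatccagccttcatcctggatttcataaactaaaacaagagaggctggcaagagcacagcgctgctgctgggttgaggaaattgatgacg

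The 7 junction and adhesion genes all had a log2 fold change above 0, with a median of 0.43, and each had its lowest value in saline tumor 1. Without that tumor the median was 0.17, with 6 above 0, and without saline tumor 2 it was 0.71. Cdh5 (ENSMUSG00000031871, chr8:104101625-104144511), VE-cadherin of the adherens junction, had the highest level per kilobase of the role. It stood at 17.96, 69.8, 42.6 and 44.8 CPM in saline tumors 1 to 4 and at 59.0, 53.2, 50.8 and 46.5 CPM in mAb-DXd/IMQ tumors 1 to 4. Saline tumor 1 was far below the rest and saline tumor 2 above all others, so the groups overlapped. Its log2 fold change was 0.26 (SE 0.30, edgeR adjusted p = 0.69), and it was -0.0020 without saline tumor 1, 0.57 without saline tumor 2 and 0.41 in limma voom. Emcn (ENSMUSG00000054690, chr3:137341067-137432185) encodes endomucin, a sialomucin of capillary and venous endothelium. It stood at 4.14, 13.7, 9.51 and 9.80 CPM in the saline tumors and at 17.1, 16.4, 20.4 and 14.3 CPM in the mAb-DXd/IMQ tumors. Every mAb-DXd/IMQ tumor lay above every saline tumor, with the gap between saline tumor 2 and mAb-DXd/IMQ tumor 4 small. The log2 fold change of Emcn was 0.87 (SE 0.29, edgeR adjusted p = 0.144), and 0.63 without saline tumor 1.

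Esam (ENSMUSG00000001946, chr9:37528078-37538319), an adhesion molecule of endothelial tight junctions, was added after its values were seen. It stood at 5.68, 17.1, 11.2 and 11.5 CPM in saline tumors and at 23.9, 18.9, 17.6 and 16.8 CPM in mAb-DXd/IMQ tumors. Only saline tumor 2 reached into the mAb-DXd/IMQ range, above its tumor 4. Esam had a log2 fold change of 0.77 (SE 0.28, edgeR adjusted p = 0.169). Pecam1, which encodes CD31 and is also found on platelets and leukocytes, had 60.9 ± 17.7 CPM in saline and 71.5 ± 5.56 CPM in mAb-DXd/IMQ tumors (SD, n = 4). Its log2 fold change was 0.23, and it was 0.09 without saline tumor 1 and 0.43 without saline tumor 2. The integrin ligand Icam2, the tight junction claudin Cldn5 and the sialomucin Cd34 had log2 fold changes of 0.43, 0.39 and 0.44. These were 0.23, 0.11 and 0.17 without saline tumor 1 and 0.71, 0.71 and 0.72 without saline tumor 2, and Icam2 was at 0.21 without mAb-DXd/IMQ tumor 1. Cldn5 was the member of the role with a low value in a treated tumor, 7.71 CPM in mAb-DXd/IMQ tumor 3 against 13.8 to 16.5 CPM in the other 3. Cd34 shares 148 exon bases (2.03%) with Gm16897 on the opposite strand.

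Among the 7 growth factor receptors and their phosphatase, 5 had a log2 fold change above 0 and 2 below, with a median of 0.42, and 0.19 without saline tumor 1. Eng (ENSMUSG00000026814, chr2:32646595-32682669) encodes endoglin, a co-receptor for transforming growth factor beta and bone morphogenetic proteins that stromal cells and macrophages can also carry. Its mean level per kilobase, 42.7 CPM per kb, was the highest of the 36 genes. Eng stood at 137, 158, 154 and 143 CPM in saline tumors and at 188, 183, 237 and 182 CPM in mAb-DXd/IMQ tumors. The saline values were close together, mAb-DXd/IMQ tumor 3 was well above the rest, and the groups did not overlap. Its log2 fold change was 0.42 (SE 0.12, edgeR adjusted p = 0.0952). Eng shares 61 of its 4048 exon bases with Fpgs on the opposite strand, and strandedness was not given in the sources used here, so reads on those bases cannot be told apart.

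Flt1 (ENSMUSG00000029648, chr5:147561604-147726011), a vascular endothelial growth factor receptor that also exists as a soluble decoy, was added after its values were seen. It stood at 104, 72.1, 69.4 and 70.5 CPM in saline tumors and at 68.1, 65.2, 69.6 and 74.8 CPM in mAb-DXd/IMQ tumors. Saline tumor 1 was high in Flt1 and the other 7 tumors lay close together, the reverse of that tumor's place in most of the 36 genes. Flt1 had a log2 fold change of -0.18 (SE 0.14, edgeR adjusted p = 0.507), and -0.03 without saline tumor 1 or with an offset for gene length. Kdr, the main signalling receptor for vascular endothelial growth factor, had 19.6 ± 5.82 CPM in saline and 28.8 ± 9.40 CPM in mAb-DXd/IMQ tumors (SD, n = 4), with 42.2 CPM in mAb-DXd/IMQ tumor 3. Flt4, the receptor for vascular endothelial growth factor C that is prominent on lymphatic vessels, had 10.5 ± 3.80 and 10.5 ± 2.12 CPM. Its log2 fold change took either sign when each tumor was left out, from -0.22 without saline tumor 1 to 0.19 without saline tumor 3. The angiopoietin receptor Tek and its relative Tie1 had log2 fold changes of 0.67 and 0.43, with 0.42 for Tek without mAb-DXd/IMQ tumor 3, and 0.19 and 0.65 for Tie1 without saline tumors 1 and 2. Ptprb, the phosphatase that removes phosphate from Tek, had 0.20, and 0.02 without saline tumor 1, where it stood at 7.36 CPM against 13.4 to 14.7 CPM in the other saline tumors. It was 0.35 with the gene length offset.

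The 5 guidance, lipid and peptide receptors had log2 fold changes from 0.28 to 0.71, with a median of 0.39, and 0.14 without saline tumor 1. Ecscr (ENSMUSG00000073599), a surface protein with a part in endothelial migration, had the highest level per kilobase of the role. It stood at 20.1, 17.1, 21.96 and 15.6 CPM in saline tumors and at 30.2, 20, 21.8 and 26.1 CPM in mAb-DXd/IMQ tumors. The groups overlapped, and saline tumor 1 was not low. The log2 fold change of Ecscr was 0.39 (SE 0.16, edgeR adjusted p = 0.228), and 0.43 without saline tumor 1. Robo4, which stabilizes vessels, had 0.28, and Clec14a, a C-type lectin of tumor endothelium, had 0.42. Ramp2, which lets the calcitonin receptor-like receptor bind adrenomedullin, had 0.71, and S1pr1, a receptor for sphingosine 1-phosphate that supports the barrier, had 0.35. Without saline tumor 1 the values were 0.09 for Robo4, 0.12 for Clec14a and 0.14 for S1pr1, and without saline tumor 2 they were 0.51 for Robo4 and 0.56 for S1pr1. Ramp2 shares 33.4% of its exon bases with Vps25 on the same strand, so its value is uncertain. Ecscr shares 62 exon bases (3.54%) with 1700066B19Rik on the opposite strand.

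The 5 secreted, fenestral and enzyme genes had a median log2 fold change of 0.63, with 4 of 5 at an unadjusted p under 0.05, against 18.9% of all tested genes. Without saline tumor 1 their median was 0.45. Plvap (ENSMUSG00000034845, chr8:71497765-71511752) forms the diaphragms of endothelial fenestrae and caveolae. It stood at 21.2, 43.2, 37.5 and 38.1 CPM in saline tumors and at 63.6, 51.0, 51.1 and 51.4 CPM in mAb-DXd/IMQ tumors. The groups did not overlap, and in mAb-DXd/IMQ tumors 2 to 4 Plvap was nearly level, with tumor 1 above them. Plvap had a log2 fold change of 0.63 (SE 0.19, edgeR adjusted p = 0.114).

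Mmrn2 (ENSMUSG00000041445, chr14:34375465-34404287) is a matrix glycoprotein of endothelial cells that binds Clec14a. Its adjusted p was the lowest of the 36 genes in edgeR with all 8 tumors, the filter on low counts and no replicate block. Without that filter the edgeR adjusted p of Aplnr was lower (0.038 against 0.0497), as it was with the block (0.147 against 0.152). Mmrn2 stood at 3.57, 7.76, 7.22 and 7.09 CPM in saline tumors and at 14.2, 11.7, 12.3 and 11.4 CPM in mAb-DXd/IMQ tumors. Saline tumors 2 to 4 were within a narrow band, saline tumor 1 was below it, and all mAb-DXd/IMQ tumors were above it. The means were 6.41 ± 1.92 and 12.4 ± 1.24 CPM (SD, n = 4), with a log2 fold change of 0.95 (SE 0.23, edgeR adjusted p = 0.0679). Without saline tumor 1 the log2 fold change was 0.75. Nos3, endothelial nitric oxide synthase, had 0.74, and Egfl7, a secreted vessel protein, had 0.50, and 0.33 without saline tumor 1. Vwf, the von Willebrand factor that endothelium and platelets store, had 0.14. It ran from -0.05 without mAb-DXd/IMQ tumor 4 to 0.31 without mAb-DXd/IMQ tumor 3, was 0.09 without saline tumor 1 and 0.06 in limma voom, and was 0.31 with the gene length offset. Nos3 shares 294 exon bases (7.12%) with Atg9b on the opposite strand, a gene with 33629 counts against 2182 for Nos3, and 25.2% with Gm15587, so its value is uncertain. Egfl7 shares 64 exon bases with Agpat2 on the opposite strand. An Egfl7 intron carries miR-126, whose mature sequence from RefSeq is printed with its seed in capitals because Egfl7 is its host gene. It lies at chr2:26591402-26591423 on the plus strand (GRCm38.p6), and its precursor's row held 0 counts in every tumor of these poly(A)-selected libraries.
mmu-miR-126a-3p: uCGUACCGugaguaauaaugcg

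The 4 transcription factors had a median log2 fold change of 0.35, with 0.12 without saline tumor 1, 0.23 without saline tumor 4 and 0.76 without saline tumor 2. Sox18 (ENSMUSG00000046470, chr2:181669836-181671640) acts with Sox7 and Sox17 in vessel development and helps to switch on Prox1 in the embryo. It stood at 4.58, 18.1, 9.37 and 8.05 CPM in saline tumors and at 15.4, 11.03, 13.3 and 9.44 CPM in mAb-DXd/IMQ tumors. Saline tumors 1 and 2 held the lowest and the highest value of the 8, and the groups overlapped. Sox18 had a log2 fold change of 0.30 (SE 0.35, edgeR adjusted p = 0.69). It was 0.06 without saline tumor 1, 0.74 without saline tumor 2, 0.17 without mAb-DXd/IMQ tumor 1 and 0.49 in limma voom. Erg, an ETS factor that maintains endothelial identity, had 5.22 ± 1.81 CPM in saline and 7.74 ± 0.421 CPM in mAb-DXd/IMQ tumors (SD, n = 4). Sox17 had a log2 fold change of 0.41, with 0.18, 0.77 and 0.25 without saline tumors 1, 2 and 4. Sox7 had -0.16, and -0.24 to -0.07 when each tumor was left out. Sox17 overlaps 804 bases of Gm37587 on the opposite strand, a gene with 2 counts in all.

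The 3 lymphatic genes were lower in mAb-DXd/IMQ tumors, with a median log2 fold change of -1.42, each at an unadjusted p under 0.05, against 18.9% of all tested genes, and none past the thresholds in edgeR. Their levels were low, from 0.140 CPM per kb for Prox1 to 0.767 CPM per kb for Lyve1, averaged over the 8 tumors. Lyve1 (ENSMUSG00000030787, chr7:110850607-110863239), a hyaluronan receptor of lymphatic endothelium that some tissue macrophages also carry, stood at 3.28, 3.43, 3.46 and 1.98 CPM in saline tumors and at 1.55, 2.12, 0.983 and 1.12 CPM in mAb-DXd/IMQ tumors. Saline tumor 4 lay below mAb-DXd/IMQ tumor 2, and the other 3 saline tumors were nearly level and above all mAb-DXd/IMQ tumors. The log2 fold change of Lyve1 was -1.07 (SE 0.32, edgeR adjusted p = 0.109).

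Prox1 and Mmrn1 are described because the role has 3 genes, a choice made after their values were seen. Prox1 (ENSMUSG00000010175, chr1:190118035-190170714), the factor that sets lymphatic identity, stood at 0.973, 0.880, 3.90 and 1.16 CPM in saline tumors and at 0.598, 0.428, 1.201 and 0.253 CPM in mAb-DXd/IMQ tumors. Mmrn1 (ENSMUSG00000054641, chr6:60924976-60989378), a multimerin of lymphatic endothelium and platelets, stood at 1.99, 2.12, 6.16 and 2.44 CPM and at 0.681, 2.27, 0.612 and 1.18 CPM. Saline tumor 3 was far above the other tumors in both genes, and the groups overlapped in both. The log2 fold change was -1.47 for Prox1 (SE 0.60, edgeR adjusted p = 0.217) and -1.42 for Mmrn1 (SE 0.50, edgeR adjusted p = 0.162). Without saline tumor 3 it was -0.69 for Prox1 and -0.88 for Mmrn1, and the role's median was -0.88. Leaving out each of the other 7 tumors gave medians from -1.59 to -1.21. Summed over the 3 genes, levels were 6.24, 6.43, 13.5 and 5.57 CPM in saline tumors and 2.83, 4.82, 2.80 and 2.56 CPM in mAb-DXd/IMQ tumors. Every saline sum lay above every mAb-DXd/IMQ sum, and saline tumor 1, low in most of the 36 genes, was not low in these.

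The 5 tip cell and sprouting genes had log2 fold changes from 0.02 to 1.46, the widest range of the blood vessel roles, with a median of 0.58, and 0.40 without saline tumor 1. Apln (ENSMUSG00000037010, chrX:48025146-48034853), the peptide apelin that tip cells release, had the highest level per kilobase of the role, 13.02 CPM per kb. It stood at 40.2, 51.1, 35.02 and 30.1 CPM in saline tumors and at 51.4, 32.9, 47.6 and 39.6 CPM in mAb-DXd/IMQ tumors. The groups overlapped over most of their range, and the log2 fold change of Apln was 0.13 (SE 0.18, edgeR adjusted p = 0.741), and 0.03 to 0.29 when each tumor was left out. Aplnr (ENSMUSG00000044338, chr2:85136225-85139923), the G protein-coupled receptor for apelin, stood at 2.07, 6.18, 6.05 and 5.38 CPM in saline tumors and at 13.9, 9.55, 22.8 and 7.93 CPM in mAb-DXd/IMQ tumors. All mAb-DXd/IMQ tumors were above all saline tumors, and they spread widely among themselves, with tumor 3 highest. Means were 4.92 ± 1.94 and 13.6 ± 6.68 CPM (SD, n = 4), and the log2 fold change of Aplnr was 1.46 (SE 0.39, edgeR adjusted p = 0.0824). Without saline tumor 1 it was 1.21.

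Esm1 (ENSMUSG00000042379, chr13:113209659-113218098), a secreted proteoglycan of tip cells also called endocan, was added after its values were seen. It stood at 2.19, 8.37, 3.62 and 4.04 CPM in saline tumors and at 15.6, 7.75, 7.25 and 12.2 CPM in mAb-DXd/IMQ tumors. Saline tumor 2 lay above mAb-DXd/IMQ tumors 2 and 3, so the groups overlapped. Esm1 had a log2 fold change of 1.23 (SE 0.39, edgeR adjusted p = 0.127), and 1.00 without saline tumor 1. The Notch ligand Dll4 had 11.9 ± 4.68 CPM in saline and 17.8 ± 1.83 CPM in mAb-DXd/IMQ tumors (SD, n = 4). The Tek ligand Angpt2, which loosens vessels, had 11.7 ± 2.83 and 11.9 ± 0.709 CPM, with log2 fold changes from -0.07 without saline tumor 4 to 0.20 without saline tumor 2. Dll4 shares 214 exon bases (5.56%) with Gm14207 on the opposite strand. Angpt2, Plvap and Esm1 lie over genes on the opposite strand with which they share 0 exon bases.

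**Figure D3:**
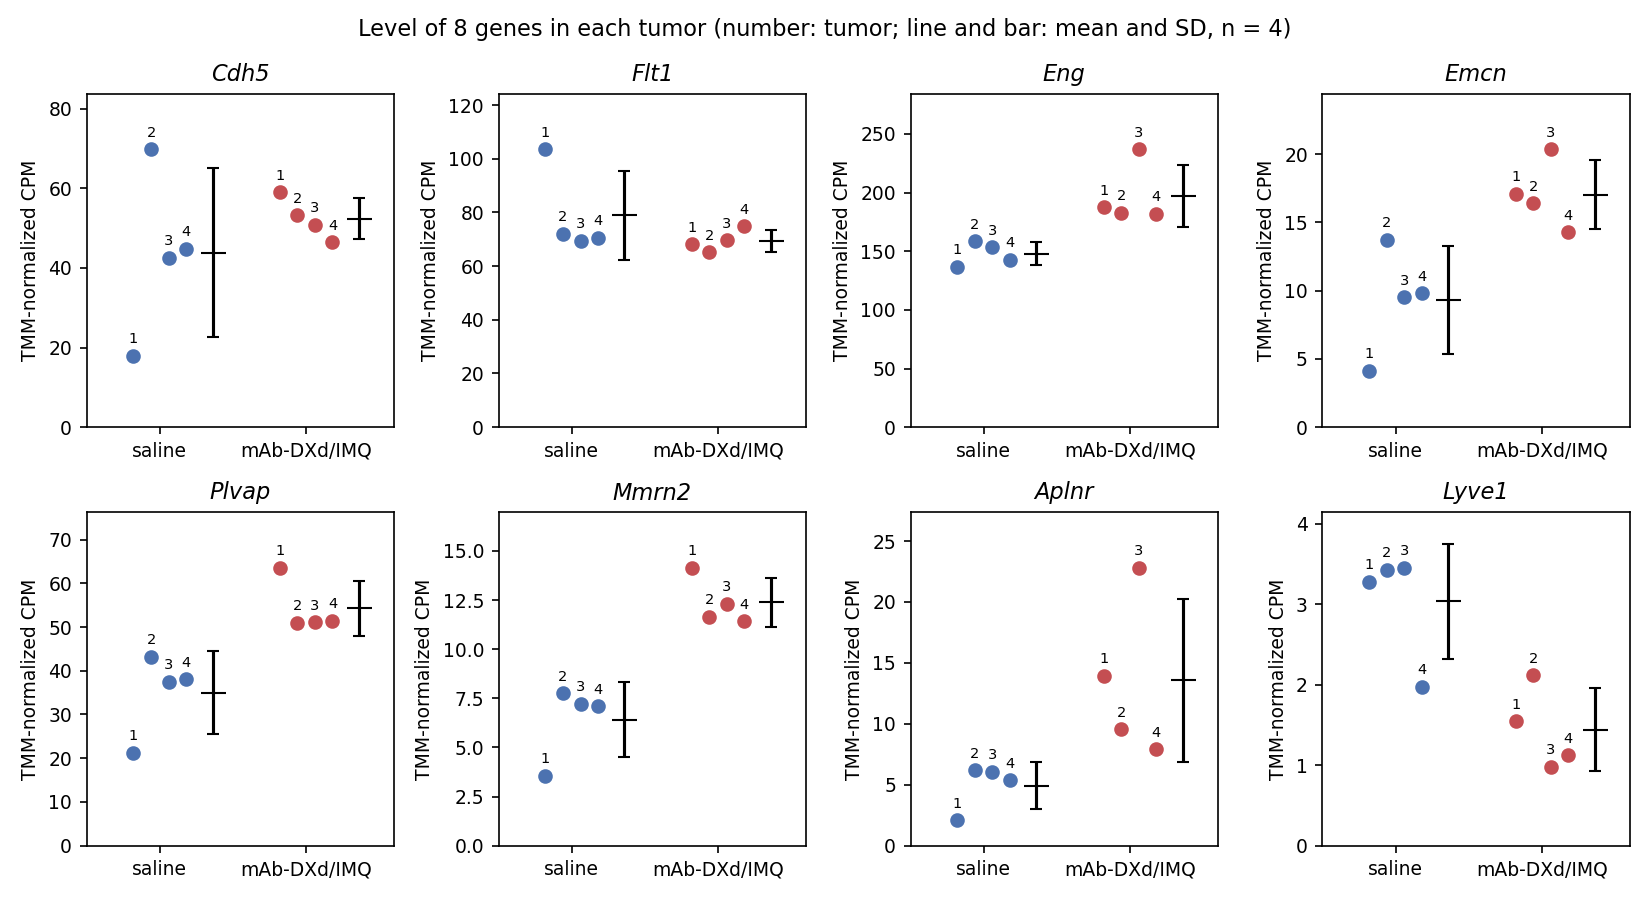
Level of 8 of the genes in each tumor, in TMM-scaled CPM, with the tumor number above each point and the mean and SD of 4 tumors beside each group. The groups are apart for Eng, Emcn, Plvap, Mmrn2 and Aplnr and overlap for Cdh5, Flt1 and Lyve1.

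To set each gene against the junction genes of the same tumor, levels per kilobase were divided by the sum over the 7 junction genes, a step chosen after the values were seen. That sum was 18.7, 58.2, 37.7 and 38.3 CPM per kb in saline tumors and 58.6, 51.3, 44.5 and 46.5 CPM per kb in mAb-DXd/IMQ tumors. It was lowest in saline tumor 1, and the groups overlapped. Of the 29 other genes, 3 had ratios higher in every mAb-DXd/IMQ tumor than in every saline tumor, against 0.432% of all tested genes, and 1 had lower ratios, against 8.58%. Both shares depend on the low divisor in saline tumor 1, which raises ratios there for genes that do not follow the junction sum. They are therefore no measure of what to expect for the members. Mmrn2 was at 4.80%, 3.36%, 4.81% and 4.67% of the junction sum in saline tumors and at 6.08%, 5.71%, 6.96% and 6.18% in mAb-DXd/IMQ tumors. On this scale saline tumor 1 lay within the range of the other saline tumors for Mmrn2. Aplnr was at 2.99%, 2.87%, 4.34% and 3.80% in saline tumors and at 6.43%, 5.03%, 13.9% and 4.61% in mAb-DXd/IMQ tumors. Esm1 was at 5.58%, 6.86%, 4.57% and 5.03% and at 12.7%, 7.20%, 7.77% and 12.5%. The gap was narrow in both genes, between saline tumor 3 and mAb-DXd/IMQ tumor 4 for Aplnr and between the tumors numbered 2 for Esm1. Lyve1 was at 6.01%, 2.02%, 3.14% and 1.77% in saline tumors and at between 0.756% in tumor 3 and 1.41% in tumor 2 among mAb-DXd/IMQ tumors. Eng and Plvap, whose CPM did not overlap between groups, overlapped on this scale. Eng ran from 67.3% to 181% in saline and from 79.1% to 131% in mAb-DXd/IMQ tumors. No ratio was tested.

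**Figure D4:**
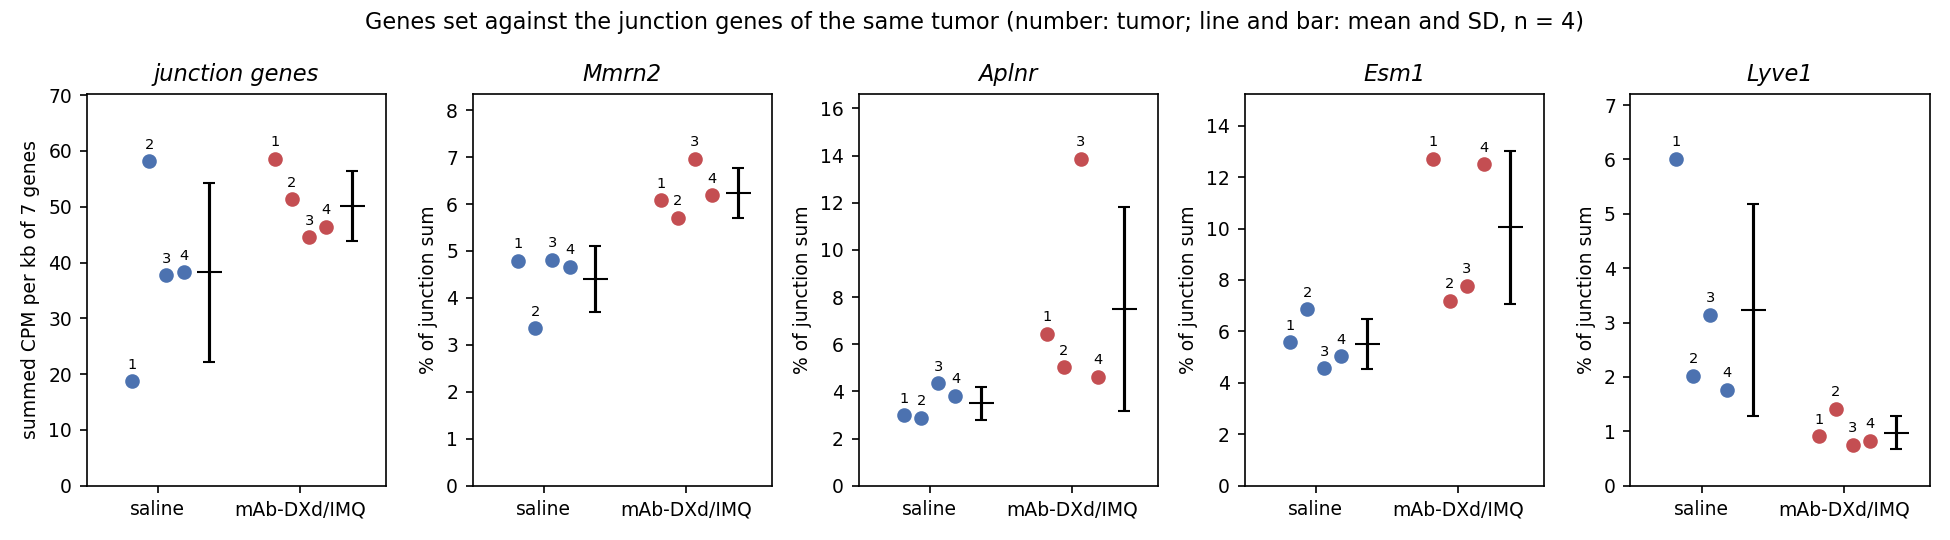
Summed level of the 7 junction genes in CPM per kb (left) and the level per kilobase of 4 genes as a percentage of that sum, in each tumor, with mean and SD of 4 tumors. Mmrn2, Aplnr and Esm1 lie higher in every mAb-DXd/IMQ tumor, and Lyve1, at 0.756% to 1.41%, lies lower than in every saline tumor.

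Genes of the same pathways outside the 36 were counted from lists. Counts at an unadjusted p under 0.05 in these and the other lists stand against 18.9% of all tested genes. Among 32 tested genes of angiogenic ligands and signalling, 23 had a log2 fold change above 0 and 9 below, with a median of 0.24. It was 0.13 without saline tumor 1 and 0.05 without mAb-DXd/IMQ tumor 3. Hey1 rose and 0 fell past the thresholds in edgeR, with 8 at an unadjusted p under 0.05. DESeq2 put 2 higher and 1 lower, and limma voom 0. Hey1 (ENSMUSG00000040289, chr3:8663359-8667256), a repressor that Notch signalling switches on, stood at 1.16, 2.28, 2.02 and 1.58 CPM in saline tumors and at 7.14, 3.62, 5.81 and 3.54 CPM in mAb-DXd/IMQ tumors. Every mAb-DXd/IMQ tumor was above every saline tumor. Its log2 fold change was 1.52 (SE 0.31, edgeR adjusted p = 0.0458). The call was lost when any of the 8 tumors was left out, with log2 fold changes from 1.30 to 1.66, and it was also lost in limma voom and with the gene length offset. Vegfa, the chief ligand of Kdr and Flt1, stood at 147, 149, 124 and 128 CPM in saline and at 111, 109, 93.1 and 154 CPM in mAb-DXd/IMQ tumors. The first 3 of those mAb-DXd/IMQ tumors lay below all saline tumors and the last above them, and the log2 fold change of Vegfa was -0.23 (SE 0.15, edgeR adjusted p = 0.441), with -0.39 without mAb-DXd/IMQ tumor 4 and -0.14 without mAb-DXd/IMQ tumor 3. Thbs1, an inhibitor of angiogenesis, had the highest level per kilobase of the list, with 372 ± 31.1 CPM in saline and 496 ± 104 CPM in mAb-DXd/IMQ tumors (SD, n = 4). Its log2 fold change was 0.42 (SE 0.15, edgeR adjusted p = 0.174), and 0.26 without mAb-DXd/IMQ tumor 3.

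Among 37 tested genes of a further endothelial list, 22 had a log2 fold change above 0 and 15 below, with a median of 0.17. It was 0.08 without mAb-DXd/IMQ tumor 3 and 0.02 without saline tumor 1, which was lowest in 22 of them. Gja4 rose and 0 fell past the thresholds in edgeR, with 8 at an unadjusted p under 0.05. DESeq2 put 2 higher and 0 lower, and limma voom 0. Gja4 (ENSMUSG00000050234, chr4:127311421-127314039), the gap junction protein connexin 37 of arterial endothelium, stood at 2.74, 3.07, 2.81 and 3.45 CPM in saline tumors and at 5.86, 5.91, 13.96 and 7.03 CPM in mAb-DXd/IMQ tumors. The saline values were close together, and mAb-DXd/IMQ tumor 3 was far above the other 7. The log2 fold change of Gja4 was 1.44 (SE 0.29, edgeR adjusted p = 0.0444). The call held without mAb-DXd/IMQ tumor 1 and was lost when any of the other 7 tumors was left out, with 1.05 without mAb-DXd/IMQ tumor 3, and it was also lost in limma voom and with the gene length offset. Ephb4, a receptor of venous endothelium that epithelial cells also carry, had the highest level per kilobase of that list. It had 268 ± 24.1 CPM in saline and 234 ± 43.0 CPM in mAb-DXd/IMQ tumors (SD, n = 4). Of 3 other lymphatic genes, 1 was above 0 and 2 below, with a median of -0.21, which ran from -0.81 to 0.20 when each tumor was left out. Podoplanin (Pdpn), which fibroblasts also carry, was the highest of these per kilobase, with a log2 fold change of 0.21, and 0.10 without saline tumor 2 and 0.13 without mAb-DXd/IMQ tumor 1. edgeR, DESeq2 and limma voom each put 0 of the 3 past the thresholds, and 0 had an unadjusted p under 0.05.

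Over all 18511 tested genes, edgeR put 101 higher and 96 lower past the thresholds, and 145 and 73 under upper-quartile scaling. The total of 197 fell to 111 without saline tumor 2, 10 without saline tumor 3, 11 without saline tumor 4, 76 without mAb-DXd/IMQ tumor 2, 88 without mAb-DXd/IMQ tumor 3 and 12 without mAb-DXd/IMQ tumor 4. The count of 0 among the 36 endothelial genes was the same in those fits.

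Mural cells, the pericytes and smooth muscle cells around vessels, were counted because they sit on the same vessels. Of 15 mural genes, 14 had a log2 fold change above 0, with a median of 0.67. It was 0.39 without mAb-DXd/IMQ tumor 1, 0.37 without mAb-DXd/IMQ tumor 3 and 0.45 without saline tumor 1, which was lowest in 9. edgeR put 0 of 15 past the thresholds, with 6 at an unadjusted p under 0.05, DESeq2 put 1 higher and limma voom 0. Summed, they stood at 279, 286, 372 and 316 CPM in saline tumors and at 545, 340.3, 559 and 358 CPM in mAb-DXd/IMQ tumors. The mural sum was lowest in saline tumor 1. mAb-DXd/IMQ tumors 1 and 3 were high and tumors 2 and 4 lay within the saline range. Acta2, smooth muscle actin, was the highest per kilobase, with 70.6 ± 17.0 and 104 ± 52.1 CPM (SD, n = 4). Pdgfrb, the receptor that binds pericytes to endothelial platelet-derived growth factor, had a log2 fold change of 0.32 (SE 0.25, edgeR adjusted p = 0.528), and -0.03 without mAb-DXd/IMQ tumor 3.

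Cells carried in blood were counted because platelets share Vwf, Mmrn1 and Pecam1 with endothelium. Of 5 red cell genes, 5 were above 0, with a median of 0.62, and saline tumor 1 was lowest in 5. The median was 0.39 without saline tumor 1, 0.32 without mAb-DXd/IMQ tumor 1 and 0.95 without saline tumor 2. Their sums were 17.4, 53.2, 22.97 and 40.05 CPM in saline tumors and 79.7, 36.3, 61.2 and 47.1 CPM in mAb-DXd/IMQ tumors, with beta globin (Hbb-bs) the highest per kilobase. The groups overlapped, and the lowest tumor was the same tumor as in the junction genes. Of 6 platelet genes tested, 4 were above 0, with a median of 0.22. It ran from 0.05 without saline tumor 1 to 0.38 without mAb-DXd/IMQ tumor 2. Their sums were 37.7, 63.9, 47.8 and 62.9 CPM in saline tumors and 72.8, 61.8, 56.6 and 75.8 CPM in mAb-DXd/IMQ tumors. The lowest platelet sum was that of saline tumor 1. Platelet factor 4 (Pf4) was the highest of these genes per kilobase, and Gp1bb had 0 counts in every tumor. edgeR, DESeq2 and limma voom each put 0 red cell and 0 platelet genes past the thresholds, with 2 and 1 at an unadjusted p under 0.05 in edgeR. Red cell genes were low with the endothelial genes in saline tumor 1, and the part of blood content in the result was not tested.

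Macrophage genes were read beside Lyve1, Eng and Flt1, which macrophages can carry. Of 11 macrophage genes, 1 was above 0 and 10 below, with a median of -0.39, and -0.59 without saline tumor 1. Without saline tumor 2 the median was -0.31, with 4 genes above 0 and 7 below. Their sums were 968, 3016, 1682 and 1958 CPM in saline tumors and 1708, 1413, 1474 and 1144 CPM in mAb-DXd/IMQ tumors. Saline tumor 1 was the lowest and saline tumor 2 the highest of the 8, and these were also the extremes in Cdh5. The complement gene C1qa was the highest per kilobase, with a log2 fold change of -0.08, and -0.28 to 0.17 when each tumor was left out. Cd163, the haemoglobin scavenger receptor of tissue macrophages, stood at 8.43, 11.3, 7.22 and 7.87 CPM in saline and at 2.72, 3.53, 4.02 and 5.23 CPM in mAb-DXd/IMQ tumors. The groups did not overlap, and Cd163 fell past the thresholds, with a log2 fold change of -1.17 (SE 0.24, edgeR adjusted p = 0.045). That call was lost when any of the 8 tumors was left out, with log2 fold changes from -1.34 to -1.02. It was also lost with scaling by upper quartile (adjusted p = 0.054) or by library size (0.0572) and with the gene length offset (0.0649). edgeR put 0 macrophage genes higher, with 3 at an unadjusted p under 0.05 in either direction, DESeq2 put 3 lower and 0 higher, and limma voom 1 lower and 0 higher. The pan-leukocyte phosphatase Ptprc had a log2 fold change of -0.16 (SE 0.17, edgeR adjusted p = 0.676). It ran from -0.35 without mAb-DXd/IMQ tumor 3 to -0.08 without mAb-DXd/IMQ tumor 4, and was -0.0003 with the gene length offset. The part of macrophages in the lower Lyve1 was not tested.

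Genes of other cell types in the tumor were counted in the same way. Of 8 lymphocyte genes, 7 were below 0, with a median of -0.93, and edgeR put Cd4 and Cd8a lower, at log2 fold changes of -1.91 and -1.22. Of the fits that left out 1 tumor, both calls were lost without saline tumor 3, saline tumor 4 or mAb-DXd/IMQ tumor 4. In those fits Cd4 was at -1.92, -1.77 and -1.90 and Cd8a at -1.17, -1.22 and -1.20. In edgeR 6 of the 8 had an unadjusted p under 0.05, and DESeq2 put 5 lower and limma voom 2. Their sums of 60.1, 90.6, 87.1 and 80.5 CPM in saline tumors lay above those of 49.9, 44.3, 30.0 and 43.9 CPM in mAb-DXd/IMQ tumors. Of 11 fibroblast genes, 3 were above 0 and 8 below, with a median of -0.25 and collagen Col1a1 the highest per kilobase. That median was 0.07 without saline tumor 4, with 7 above 0, -0.13 without mAb-DXd/IMQ tumor 4 and -0.39 without saline tumor 1. edgeR put Scara5 lower, at a log2 fold change of -2.11, and of the same fits that call was lost without saline tumor 3 or 4 or without mAb-DXd/IMQ tumor 1, 3 or 4. In those fits it ran from -2.25 to -1.69. DESeq2 put Scara5 lower and Fap higher, limma voom put Scara5 lower, and 3 of 11 had an unadjusted p under 0.05 in edgeR. Fibroblast sums were 2894, 3860, 6698 and 7243 CPM in saline tumors and 5527, 4275, 7543 and 2857 CPM in mAb-DXd/IMQ tumors.

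Simple epithelium, the class of the tumor line, had 7 of 7 genes above 0, with a median of 0.30, and Krt18 the highest per kilobase. The median was 0.15 without saline tumor 2 and 0.01 without mAb-DXd/IMQ tumor 1, where 4 were above 0 and 3 below. Its sums were 2566, 1961, 2596 and 2447 CPM in saline tumors and 3728, 2928, 2138 and 2241 CPM in mAb-DXd/IMQ tumors, and the groups overlapped. Epidermis had 5 of 5 above 0, with a median of 1.04 and Krt14 the highest per kilobase. Without mAb-DXd/IMQ tumor 2 the median was -0.77, with 1 above 0. Adipocytes had 9 of 9 below 0, with a median of -0.58 and Fabp4 the highest. Their median ran from -0.96 without saline tumor 2 to -0.22 without saline tumor 1, where 2 were above 0. Skeletal muscle had 3 above 0 and 6 below, with a median of -0.22 and Acta1 the highest. Saline tumor 1 was the highest of the 8 tumors in 6 of the 9, and without it the median was 0.09, with 8 above 0. Without mAb-DXd/IMQ tumor 2 it was 0.0018, and without saline tumor 2 it was -0.59. In the hypoxia response, which switches on Vegfa, 3 of 11 genes were above 0 and 8 below, with a median of -0.06 and Ldha the highest per kilobase. Saline tumor 1 was the highest of the 8 tumors in 7 of the 11, and without it the median was 0.04, with 7 above 0. Without mAb-DXd/IMQ tumor 3 it was 0.05, again with 7 above 0. edgeR, DESeq2 and limma voom each put 0 genes of these 5 lists past the thresholds, and 0 had an unadjusted p under 0.05 in edgeR. The part of any of these cell types in the endothelial values was not tested.

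**Figure D5:**
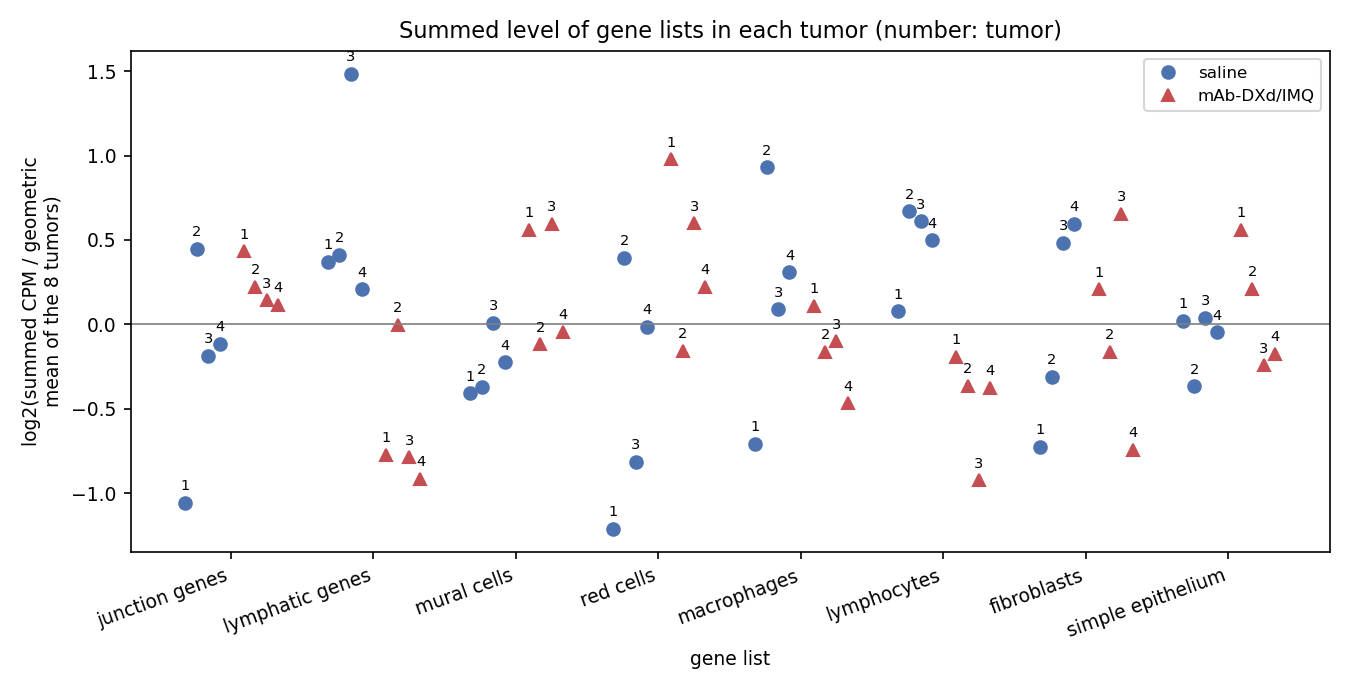
Summed CPM of 8 gene lists in each tumor, as log2 over the geometric mean of the 8 tumors, with the tumor number above each point (circles, saline; triangles, mAb-DXd/IMQ). Saline tumor 1 is lowest in the junction, mural cell, red cell and macrophage lists, and the groups are apart in the lymphatic and lymphocyte lists.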

How the data were processed

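RNA of 8 4T1 tumors, poly(A)-selected, was sequenced by the study. The authors deposited raw counts per gene with a length and coordinates for each gene. The submitters' processing fields name HISAT2, HISAT, TopHat2 and the build mm39, without versions, while 98.33% of the identifiers shared with the GENCODE M21 annotation, and all 36 genes, had its GRCm38 coordinates. The counting program and strandedness were not given in the sources used here. By the study's methods, tumors were collected from as many mice in each group as there are tumors here, while the labels name no mouse for a tumor. The p-values measure the spread between these tumors.

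Counts were filtered with filterByExpr (minimum count 10, minimum total 15), scaled by TMM (factors 0.940 to 1.07) and tested with edgeR 4.0.16 in R 4.3.3 by the quasi-likelihood F-test without covariates. The edgeR version is older than the study's. Adjustment was by Benjamini-Hochberg over all 18511 tested genes. SEs were approximated as the log2 fold change over the square root of F. DESeq2 1.42.0, limma 3.58.1 voom, other scalings and filters, a gene length offset, a replicate block and leaving out each tumor were alternatives. Figures used matplotlib 3.10.9. The main edgeR fit was tested on simulated counts with known changes, in which no tumor was made to stand apart.

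Members and lists were chosen with earlier results of these data known. Values per tumor are given for genes past the thresholds or with groups apart and for the gene highest per kilobase in each role. Of the other lists, the gene highest per kilobase and up to 5 past the thresholds are named, with Vegfa, Pdgfrb and Ptprc. Cldn5, Kdr and other members beyond this rule were chosen after their values were seen. The list symbol Figf matched no gene.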

Additional observations from a re-analysis of the deposited data

Results flagged for a closer look

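In 160 groups of 4 tumors, the gap between the highest or lowest tumor and its nearest neighbour was set against the range of the group. A gap that takes up too much of the range by Dixon's limit for 4 values was found in 18. For normally distributed values, chance would give about 1 in 20 groups, 8 of 160. CPM need not be normally distributed, and some flagged sums hold genes that are flagged themselves. The 18 are therefore not independent, and 8 is a rough guide only. The values below are that gap as a share of the range.

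Among saline tumors, tumor 1 was far above the rest in Flt1 (0.922), at 104 CPM against 69.4 to 72.1. It was far below them in Ptprb (0.834), at 7.36 CPM against 13.4 to 14.7, and in Mmrn2 (0.841), at 3.57 CPM against 7.09 to 7.76. Tumor 3 was far above the rest in Prox1 (0.909), at 3.90 CPM against 0.880 to 1.16, in Mmrn1 (0.891), at 6.16 CPM against 1.99 to 2.44, and in the summed lymphatic genes (0.892). Tumor 4 was far below the rest in Lyve1 (0.883), at 1.98 CPM against 3.28 to 3.46. Tumor 2 was far above the rest in the summed tip cell genes (0.85), at 99.7 CPM against 60.2 to 66.1.

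Among mAb-DXd/IMQ tumors, tumor 3 was far above the rest in 7 of these groups. They were Flt4 (0.901), at 13.7 CPM against 9.19 to 9.63, Eng (0.897), Gja4 (0.856), Ptprc (0.91), at 193 CPM against 119 to 126, Thbs1 (0.89), at 652 CPM against 435 to 459, the summed growth factor receptors (0.84), at 406 CPM against 320 to 334, and the summed angiogenic ligands (0.862), at 3289 CPM against 2391 to 2515. Tumor 1 was far above the rest in Icam2 (0.874), at 9.04 CPM against 5.12 to 5.61, and in Plvap (0.968), at 63.6 CPM against 51.0 to 51.4. Tumor 2 was far above the rest in the summed lymphatic genes (0.881), at 4.82 CPM against 2.56 to 2.83. What set these tumors apart was not tested.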

How the results depend on the processing

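Of the 15 endothelial genes given in every tumor, 14 kept their direction under each of 19 alternative fits where they were tested, as did 15 of 22 other named genes. The exception was Cdh5, from -0.0020 to 0.57 when each tumor was left out in turn. The members' median log2 fold change was 0.18 to 0.62 over those fits.

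The number of genes past the thresholds was 358 without a filter on low counts, 787 in DESeq2, 120 with a gene length offset, and 10 to 203 when each tumor was left out. Members past the thresholds were 2 without the filter (Mmrn2 and Aplnr), where 358 of 31459 tested genes passed. In DESeq2 there were 7, against 4.25% of all tested genes. Members with groups apart were 5 to 21 when each tumor was left out, where 7.17% to 10.2% of all tested genes were apart higher and 8.17% to 10.8% lower. The cause of these shifts was not tested.

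The labels number the tumors alike in both groups. Deviations from the group mean in same-numbered tumors correlated at -0.170, -0.0546, 0.0794 and -0.0672 across genes. These values gave no sign of pairing but cannot exclude it, because differently numbered tumors were not set beside them. With a replicate block 14 genes passed, and 12 with a gene length offset and the block, an alternative chosen after seeing the data, with 0 members in either. With the block, alone or with the offset, the calls of Cd163, Cd4, Cd8a, Gja4, Hey1 and Scara5 were lost. In edgeR an unadjusted p under 0.05 was found in 17 of the 36 with the block, against 15.4% of all tested genes, and in 15 with the offset and the block, against 14.4%.

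Over the fits that leave out each tumor, log2 fold changes that changed sign ran from -0.78 to 0.037 for Acta1, -0.28 to 0.17 for C1qa, -0.38 to 0.14 for Col1a1, -0.25 to 0.15 for Fabp4, -0.0097 to 0.26 for Krt18, -0.28 to 0.048 for Ldha, -0.026 to 0.47 for Pdgfrb, and, among the 36 with Cdh5, -0.22 to 0.19 for Flt4, -0.068 to 0.20 for Angpt2 and -0.053 to 0.31 for Vwf. Col1a1 was 0.0041 with the length offset and 0.031 with the offset and the block. The cause was not tested. Log2 fold change ran with gene length (Spearman rho -0.212 across genes, which are not independent replicates), and -0.0319 with the offset. At these depths 3 counts stand at 0.0431 to 0.0867 CPM, and every Prox1 value lay above that. Prox1 was not tested at a minimum of 1 CPM in 4 tumors.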
